A study of Mus musculus with 8 samples.

Results

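The genes described here are 40 mouse genes of the mitotic checkpoint, the centromere and kinetochore, and the G2/M phase of the cell cycle. Kinesins other than Cenpe are left out. All 40 were found by symbol among the 22200 genes of the deposited table. The list was chosen with earlier results of these data known, so its counts beside all tested genes are a description, not independent support. RNA levels were measured in immortalised fibroblasts from mouse embryos on the C57BL/6 background, and the genotype label is TAF4-/- in all libraries. TAF4 belongs to TFIID, which places RNA polymerase II at promoters. The 8 libraries form 3 groups: untreated cells at 12 h (n = 3), cells given retinoic acid (RA) for 12 h (n = 3), and cells given RA for 72 h (n = 2). No untreated library was labelled 72 h, so RA and time in culture cannot be told apart in the comparison of 72 h with untreated cells. The titles of all 8 libraries carry cl1, which resembles the study's name for its TAF4-expressing line, while the genotype labels, followed here, say TAF4-/-. Nothing in the labels says that the replicates came from separate cultures, so p-values measure only the spread between these libraries, which may be technical.

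Mitotic genes are transcribed late in the cell cycle and their products drive the separation of the chromosomes. The spindle checkpoint holds the anaphase-promoting complex inactive until each kinetochore is attached to microtubules. Once released, that complex marks securin and B-type cyclins for degradation, separase cuts cohesin, and the cell divides. In many of these genes a CCAAT box and a cell cycle homology region (CHR, TTTGAA) lie near the transcription start. In a proliferating fibroblast culture the RNA of such genes comes mainly from the cells that are in G2 or mitosis. In bulk RNA, a larger share of such cells and more RNA per cell cannot be told apart. For its TAF4-null line, the study reported no significant effect of RA on cell counts or BrdU incorporation. It also reported no change of the cell cycle by FACS. How those assays relate to the RNA values here was not tested.

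The promoters are shown first, because this sequence pattern near the start is what most of the genes share. Promoter windows of 300 bases, from 250 before to 50 after the start, came from RefSeq (assembly GRCm38.p6) and were found for 33 of the 40 genes. Incenp, Tpx2, Aurkb, Ccna2, Cdca2, Dlgap5 and Diap3 had no entry. Each line below gives the 120 bases before the start on the strand of the gene, placed on mm9 by an exact match, with TTTGAA and CCAAT and their reverse complements TTCAAA and ATTGG in capitals. Cdc20, Espl1, Top2a, Ckap2l and Depdc1a are shown as examples with both motifs close to the start, and Bub3 and Plk1 because they were the 2 genes that did not pass the test at 72 h against untreated.
Cdc20 (chr4:118109949-118110068, minus strand): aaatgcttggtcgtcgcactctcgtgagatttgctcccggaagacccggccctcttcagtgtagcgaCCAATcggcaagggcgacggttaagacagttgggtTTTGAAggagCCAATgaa
Espl1 (chr15:102126604-102126723, plus strand): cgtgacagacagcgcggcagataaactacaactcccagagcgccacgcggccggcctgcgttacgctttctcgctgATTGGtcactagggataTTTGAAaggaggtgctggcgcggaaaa
Top2a (chr11:98885504-98885623, minus strand): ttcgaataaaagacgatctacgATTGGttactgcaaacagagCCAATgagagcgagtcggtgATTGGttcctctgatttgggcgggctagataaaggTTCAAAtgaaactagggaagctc
Ckap2l (chr2:129122949-129123068, minus strand): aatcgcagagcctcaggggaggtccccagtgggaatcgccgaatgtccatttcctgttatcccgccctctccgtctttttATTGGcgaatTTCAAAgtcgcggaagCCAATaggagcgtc
Depdc1a (chr3:159158277-159158396, plus strand): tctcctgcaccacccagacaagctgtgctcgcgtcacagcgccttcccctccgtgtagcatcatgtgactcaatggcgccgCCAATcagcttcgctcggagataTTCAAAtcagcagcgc
Bub3 (chr7:138703764-138703883, plus strand): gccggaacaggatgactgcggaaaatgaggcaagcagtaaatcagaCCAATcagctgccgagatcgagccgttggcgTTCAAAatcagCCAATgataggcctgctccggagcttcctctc
Plk1 (chr7:129302829-129302948, plus strand): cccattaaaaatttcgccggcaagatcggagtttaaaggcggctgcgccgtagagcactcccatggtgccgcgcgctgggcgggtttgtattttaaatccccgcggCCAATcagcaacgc

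TTTGAA, on either strand, was found in 25 of the 33 windows (75.8%), against 18.1% of the windows of 27025 genes. CCAAT was found in 26 of 33 (78.8%), against 37.9% of all genes, and at least 2 copies of it in 19 of 33 (57.6%), against 12.2%. Both motifs were present in 22 windows (66.7%, against 7.1%) and neither in 4 (12.1%, against 51.1%). The 2 motifs overlapped once. Of 31 TTTGAA matches, 25 lay within 50 bases of the start, whereas 60 of 63 CCAAT matches lay before it. Bub3 holds both motifs in the stretch shown, and Plk1 holds a CCAAT there and a TTTGAA after the start, outside it. Letters that match a motif are a description and not a site.

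**Figure D1:**
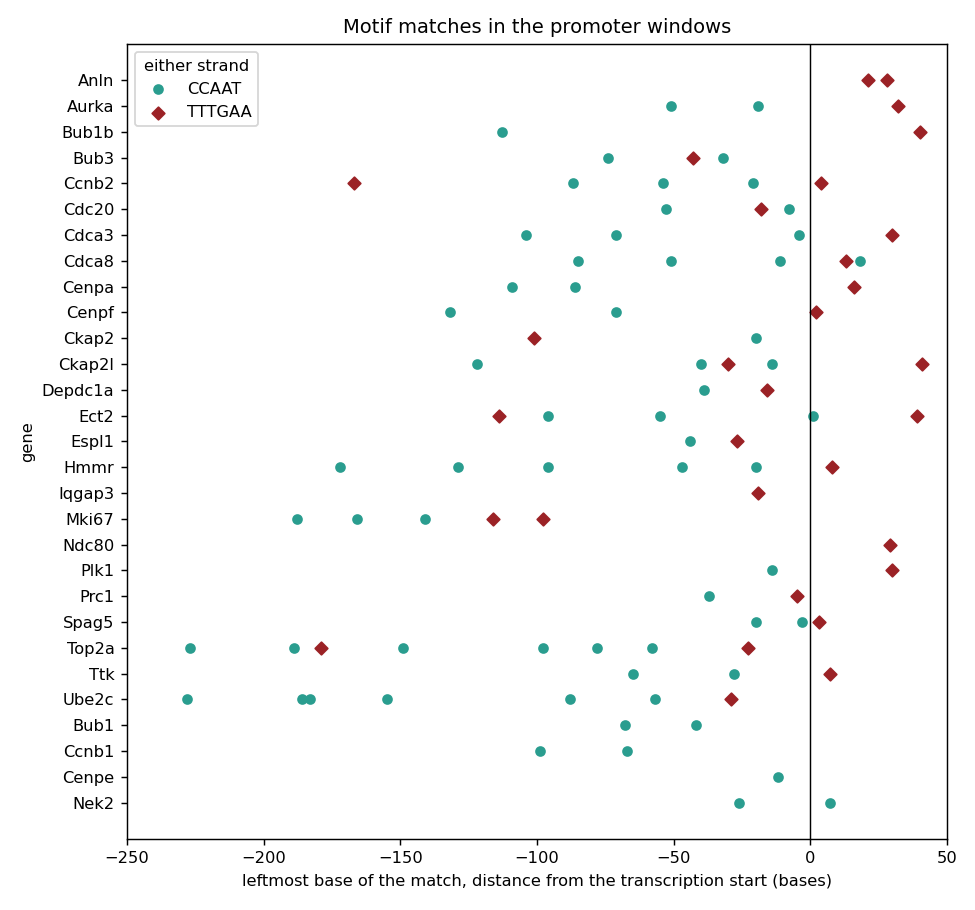
Positions of CCAAT (circles) and TTTGAA (diamonds), on either strand, in the RefSeq promoter windows of the genes that hold at least 1 of them, with the distance from the transcription start in bases on the horizontal axis. Most CCAAT matches lie before the start (60 of 63), and 25 of 31 TTTGAA matches lie within 50 bases of it.

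Values are reads per gene that the authors had quantile normalised, which gives each library the same set of values, and the depth of the libraries is lost. The scale has a lowest value of 1 and a median of 20.75 per gene. Levels of the 40 genes were not compared with each other, since reads were not scaled to length. Of 23 cell type markers 21 were in the table, without Epcam and Map2. Of the fibroblast markers, Col1a1 stood between 40456 and 65328 normalised reads, Vim between 82396 and 110139, Pdgfra between 201 and 644, and Thy1 between 1 and 3.5. In 4 of the 9 fibroblast markers both 72 h libraries lay outside the 6 others. They were lower in Col3a1 (7665 and 8071, against 15625 to 22110), Col1a2 (20412 and 18923, against 25760 to 30273) and S100a4 (1371 and 1520, against 1744 to 2196), and higher in Pdgfrb (1082 and 1204, against 740.2 to 914). The share of all tested genes that lie outside in either direction was not computed. The count of markers is therefore not read as a change. In Pdgfra the 72 h libraries (430 and 385) lay above untreated cells (201 to 216) and below the 12 h libraries (543 to 644). The part of these differences in the results was not tested. The markers of epithelial cells, endothelium, leukocytes, skeletal muscle and neurons stayed at or below 33.8. Taf4a, the gene of the genotype label, stood between 984 and 1449 in all 8 libraries; a value for the whole gene does not show whether a part of it was deleted, so it checks nothing. Within groups, 1 axis held 50.1% of the variance of the tested genes, which split the libraries into side 1 (the first 2 untreated replicates, the third of RA 12 h and the second of RA 72 h) and side 2 (the other 4), so the comparisons are also given within each side.

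After 72 h of RA nearly all of the mitotic genes were higher than in untreated cells, by close to 2-fold, and after 12 h none had passed the test. A gene passed when its adjusted p was below 0.05 (limma, two-sided, Benjamini-Hochberg over the 12673 genes tested) and was called when it also changed at least 2-fold. All 40 genes were tested. At 72 h against untreated, 38 of 40 passed and were higher, where 6.08% of all tested genes passed and were higher, and 0 passed and were lower. All 40 were higher by sign. Of the 40, 17 were called, against 2.15% of all tested genes. The median log2 change of (value + 1) was 0.97, with a range from 0.35 for Bub3 to 1.60 for Cdc20, while the median over all tested genes was -0.02 and 2.76% of them lay above 0.97. In 39 of the 40 genes both 72 h libraries lay above all 3 untreated ones, which held for 17.2% of tested genes. In 38 of 40 they lay above the 6 other libraries, which held for 10% of tested genes. The exceptions were Plk1, which overlapped untreated cells, and Ect2, which overlapped the 12 h libraries.

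**Figure D2:**
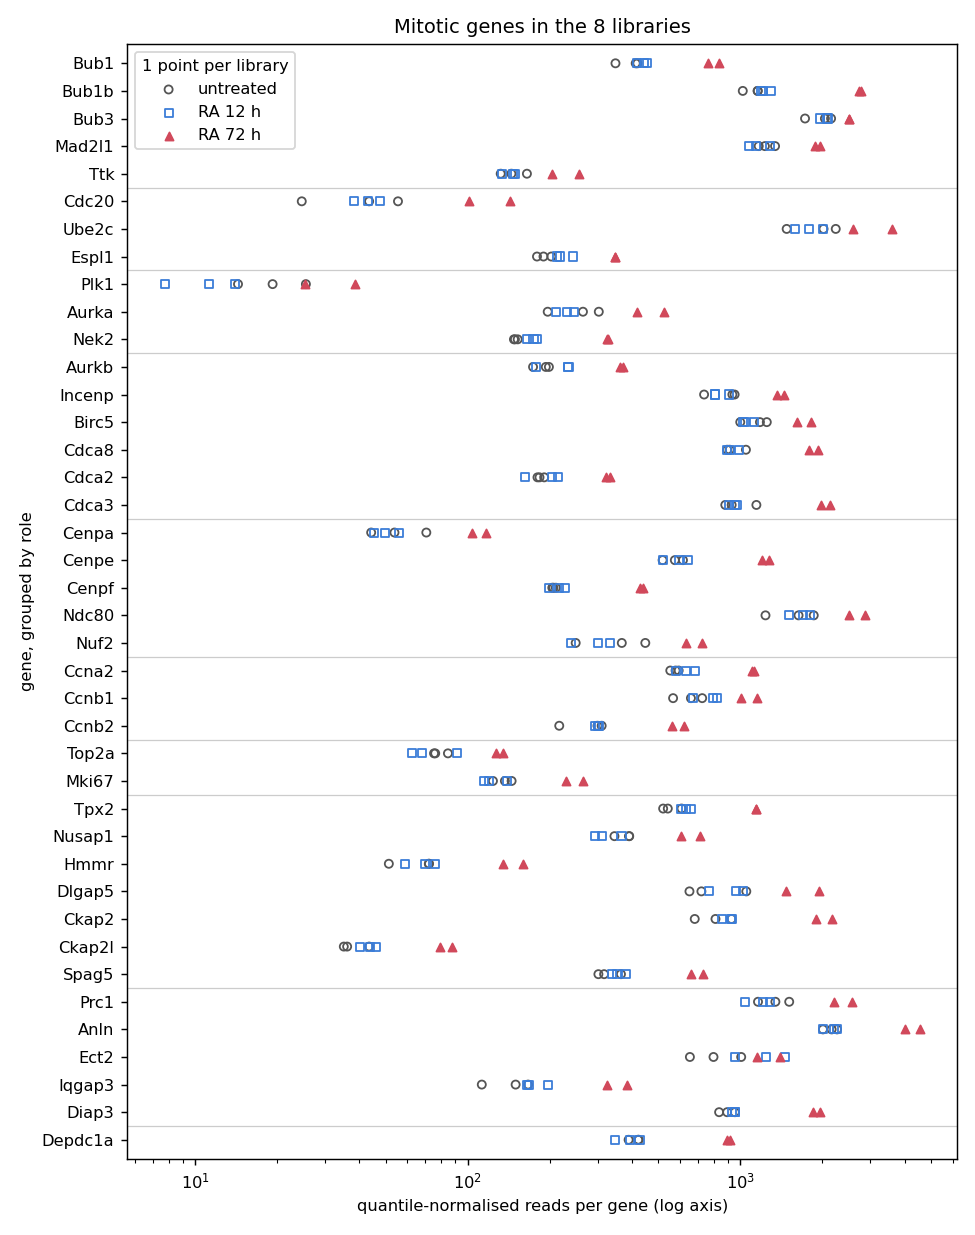
Quantile-normalised reads of the 40 genes (log axis), 1 point per library, for untreated cells (circles), RA 12 h (squares) and RA 72 h (triangles), with genes grouped by role. In 38 of the 40 genes both triangles lie to the right of all 6 other points, while circles and squares are interspersed in most rows.

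The 2 libraries of 72 h gave nearly the same picture. Relative to the mean of untreated cells, the median of the 40 genes was 0.95 in replicate 1 and 0.98 in replicate 2 on the log2 scale, and all 40 genes were above that mean in both. The 3 untreated libraries had medians of 0.03, -0.00 and 0.02 and the 3 libraries of 12 h had 0.03, 0.10 and 0.06. Split by side of the axis, all 40 genes were higher at 72 h than in untreated cells, with medians of 0.99 on side 1 and 0.92 on side 2. Of all tested genes, 47.3% and 47.5% were higher there. In the 39 genes whose 72 h libraries both lay above all untreated ones, the direction within sides was fixed in advance. The split therefore adds no support for the direction in those genes. The median within-group SD was 0.14 on the log2 scale, against 0.19 over all tested genes.

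Of the 5 spindle checkpoint genes, 4 passed at 72 h. Bub1b (chromosome 2, 118423947 to 118467328, mm9), which encodes the checkpoint protein BubR1, gave 1156, 1020 and 1158 in untreated cells, 1187, 1290 and 1211 after 12 h of RA, and 2729 and 2779 after 72 h. Both 72 h libraries lay far above the other 6, a log2 change of 1.31 ± 0.10 (SE, adjusted p = 3.50e-06) from untreated cells. Bub1 (chromosome 2, 127626858 to 127657601), a kinase that builds the checkpoint at the kinetochore, gave 348, 413 and 419 in untreated cells, 442, 454 and 418 after 12 h of RA, and 762 and 835 after 72 h, a change of 1.02 ± 0.12 (SE, adjusted p = 0.000101). Mad2l1, whose product MAD2 binds and holds CDC20, rose from 1246 ± 87.5 to 1917 ± 48.9 (SD, n = 3 and 2), a change of 0.62 ± 0.11 (SE, adjusted p = 0.00261). Ttk, the MPS1 kinase that starts checkpoint signalling, gave 145, 165 and 132 in untreated cells, 149, 134 and 147 after 12 h of RA, and 203 and 257 after 72 h. Both 72 h values lay above the other 6, while untreated cells and 12 h overlapped. Its change of 0.64 (adjusted p = 0.018) did not pass without RA 72 h replicate 2 (0.2) or without untreated replicate 1 (0.0584).

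Bub3 (chromosome 7, 138703905 to 138715412), which brings Bub1 and BubR1 to kinetochores, was the checkpoint gene that did not pass. Its values were 2151, 1726 and 2042 in untreated cells, 2089, 1959 and 2072 after 12 h of RA, and 2502 and 2502 after 72 h. The 72 h libraries lay above all others, but the change was 0.35 ± 0.11 (SE, adjusted p = 0.067), the smallest of the 40. The adjusted p was 0.0446 without untreated replicate 3 and 0.0132 with the side as a term.

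All 3 genes of the anaphase-promoting complex and separase passed. Cdc20 (chromosome 4, 118105506 to 118109957), the activator of the complex and the target of the checkpoint, gave 43.5, 55.5 and 24.6 in untreated cells, 38.4, 43.1 and 47.8 after 12 h of RA, and 101 and 143 after 72 h. Both 72 h values lay above all others, and the log2 change of 1.60 ± 0.30 (SE, adjusted p = 0.00314) was the largest of the 40 genes, though its standard error was among the largest too. Without RA 72 h replicate 2 the adjusted p was 0.0531. Ube2c, the ubiquitin-conjugating enzyme of the complex, gave 2018, 2237 and 1478 in untreated cells, 1585, 1785 and 2015 after 12 h of RA, and 2578 and 3586 after 72 h. Its 72 h libraries lay above all others, with a change of 0.69 ± 0.18 (SE, adjusted p = 0.0238), which did not pass without replicate 2 of 72 h (0.246) or without untreated replicate 1 (0.0516). Espl1 (chromosome 15, 102126724 to 102154787), which encodes separase, gave 189.6, 203 and 179.5 in untreated cells, 212, 219 and 243 after 12 h of RA, and 346 and 348 after 72 h. The replicates of 72 h were almost equal, and the change was 0.86 ± 0.13 (SE, adjusted p = 0.000627).

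Of the 3 mitotic kinase genes, Nek2 and Aurka passed. Nek2, a centrosomal kinase that helps to separate the spindle poles, gave 148, 149 and 152 in untreated cells, 179, 166 and 174 after 12 h of RA, and 325 and 327 after 72 h. This was the most even pattern of the kinases, with a change of 1.12 ± 0.13 (SE, adjusted p = 6.81e-05). Aurka, the spindle pole kinase Aurora A, gave 302, 265 and 196 in untreated cells, 210.5, 231 and 246 after 12 h of RA, and 419 and 523 after 72 h, a change of 0.90 ± 0.18 (SE, adjusted p = 0.0044) that did not pass without RA 72 h replicate 2 (0.071). Plk1 (chromosome 7, 129302951 to 129313389), the Polo-like kinase that acts from mitotic entry to cytokinesis, did not pass against untreated cells. Its values were 25.5, 19.2 and 14.4 in untreated cells, 14, 11.2 and 7.75 after 12 h of RA, and 25.2 and 38.8 after 72 h. All 3 values at 12 h lay below all 3 untreated ones, and the lower 72 h value lay just below the highest untreated one. Neither change from untreated passed: it was -0.79 ± 0.32 (SE, adjusted p = 0.235) at 12 h and 0.68 ± 0.36 (SE, adjusted p = 0.279) at 72 h. The standard error of Plk1 was the largest of the 40 genes at each time. Its values were also low, on a scale with a lowest value of 1 and a median of 20.75 per gene. Whether its course differs from that of the other genes was not tested. Between 12 h and 72 h of RA the rise was 1.46 ± 0.36 (SE, adjusted p = 0.0292), which did not pass without replicate 1 or 2 of 72 h (0.073 and 0.297) or without replicate 2 or 3 of 12 h (0.0873 and 0.0798).

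All 6 genes of the chromosomal passenger complex and the CDCA group passed and Cdca3 was called. The passenger complex corrects faulty attachments at centromeres; Aurkb is its kinase, Incenp its scaffold, and Birc5 (survivin) and Cdca8 (borealin) its targeting subunits. Aurkb gave 174, 193 and 198 in untreated cells, 178, 234 and 234 after 12 h of RA, and 361 and 371 after 72 h, a change of 0.96 ± 0.15 (SE, adjusted p = 0.000872). Incenp rose by 0.69 ± 0.13 (SE, adjusted p = 0.00297). Birc5 gave 1180, 1250 and 999 in untreated cells, 1018, 1036 and 1123 after 12 h of RA, and 1614 and 1817 after 72 h, a change of 0.59 ± 0.12 (SE, adjusted p = 0.00563), the smallest among the genes that passed, with an adjusted p of 0.0813 without RA 72 h replicate 2. Cdca8 (chromosome 4, 124595709 to 124616555) rose by 0.97 ± 0.11 (SE, adjusted p = 7.38e-05), with both 72 h values at 1792 or above and no other value over 1048. The remaining members are Cdca2 (Repo-Man), which brings a phosphatase to chromosomes at anaphase, and Cdca3, a mitotic entry factor. Cdca2 rose by 0.82 ± 0.14 (SE, adjusted p = 0.00217). Cdca3 gave 929, 1145 and 880.4 in untreated cells, 905, 972 and 952 after 12 h of RA, and 1968 and 2130 after 72 h, a change of 1.06 ± 0.12 (SE, adjusted p = 7.74e-05).

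All 5 centromere and kinetochore genes passed. Cenpa, the histone H3 variant that marks centromeres, gave 70.5, 53.9 and 44.2 in untreated cells, 45.5, 56.1 and 49.8 after 12 h of RA, and 116 and 104 after 72 h. Its change of 0.98 ± 0.22 (SE, adjusted p = 0.01) did not pass without RA 72 h replicate 1 (0.11). Cenpe, the kinetochore motor that moves chromosomes to the equator, gave 575, 518 and 616 in untreated cells, 519.9, 641 and 596 after 12 h of RA, and 1274 and 1199 after 72 h, and Cenpf, which links kinetochores to microtubules and dynein, gave 206, 204 and 210.4 in untreated cells, 199, 216 and 227 after 12 h of RA, and 428 and 439 after 72 h. Both were called, with changes of 1.12 ± 0.12 (SE, adjusted p = 5.26e-05) and 1.06 ± 0.12 (SE, adjusted p = 7.74e-05). Ndc80 and Nuf2 encode partners in the complex that binds microtubule ends. Ndc80 rose by 0.78 ± 0.15 (SE, adjusted p = 0.00462), but did not pass without RA 72 h replicate 1 (0.0685). Nuf2 gave 448, 367 and 249 in untreated cells, 239.9, 301 and 331 after 12 h of RA, and 630.4 and 725 after 72 h. The untreated replicates spread widely in this gene, and the change of 0.97 ± 0.21 (SE, adjusted p = 0.00834) did not pass without replicate 2 of 72 h (0.0818).

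The 3 cyclin genes passed. Ccna2, cyclin A of S and G2 phase, gave 553, 579 and 594 in untreated cells, 633, 684 and 580.0 after 12 h of RA, and 1101 and 1120 after 72 h. The groups of untreated cells and 12 h overlapped and both 72 h values lay above them, a change of 0.95 ± 0.11 (SE, adjusted p = 8.25e-05). Ccnb2 gave 309.9, 299 and 217 in untreated cells, 303, 299 and 293 after 12 h of RA, and 562 and 623 after 72 h and was called, with a change of 1.12 ± 0.15 (SE, adjusted p = 0.000308). Ccnb1, the main mitotic cyclin and a target of the anaphase-promoting complex, gave 658, 566 and 724 in untreated cells, 819, 794 and 672 after 12 h of RA, and 1155 and 1005 after 72 h. It rose by 0.74 ± 0.13 (SE, adjusted p = 0.00286), less than Ccnb2, and did not pass without RA 72 h replicate 1 (0.0556); the difference between the 2 cyclins was not tested. Top2a, the topoisomerase that untangles sister chromatids, gave 84.6, 75.2 and 76 in untreated cells, 62.4, 91.1 and 68 after 12 h of RA, and 128 and 135 after 72 h, a change of 0.73 ± 0.19 (SE, adjusted p = 0.0229). It did not pass without replicate 1 of 72 h (0.112), replicate 2 of 72 h (0.139) or untreated replicate 2 (0.0549). Mki67, the source of the Ki-67 proliferation antigen, gave 137, 124 and 145 in untreated cells, 119.8, 139.8 and 115 after 12 h of RA, and 264 and 229 after 72 h, a change of 0.86 ± 0.15 (SE, adjusted p = 0.00229).

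The 7 spindle and microtubule-binding genes had the highest median log2 change of the roles with more than 1 gene, 1.10: all passed and 6 were called. Ckap2 (chromosome 8, 23278624 to 23296291), a spindle stabiliser, gave 928, 680.1 and 810.4 in untreated cells, 853, 922 and 930.1 after 12 h of RA, and 2173 and 1891 after 72 h. Both 72 h values were far above the other 6, a change of 1.34 ± 0.13 (SE, adjusted p = 2.16e-05), the second largest of the 40 genes. Its relative Ckap2l (chromosome 2, 129093946 to 129122948) gave 35.1, 43.5 and 36.1 in untreated cells, 40.4, 43.8 and 46.2 after 12 h of RA, and 87.4 and 79 after 72 h, and rose by 1.11 ± 0.20 (SE, adjusted p = 0.00289). Hmmr, which organises spindle poles, gave 72, 51.4 and 72.1 in untreated cells, 69.6, 58.8 and 76 after 12 h of RA, and 159 and 134 after 72 h, a change of 1.17 ± 0.20 (SE, adjusted p = 0.00203). Tpx2, the activator of Aurora A on spindle microtubules, gave 542, 521 and 608 in untreated cells, 658, 631 and 605 after 12 h of RA, and 1143 and 1141 after 72 h, a change of 1.04 ± 0.11 (SE, adjusted p = 3.90e-05) with nearly equal replicates at 72 h. Dlgap5 (HURP), a stabiliser of kinetochore fibres, gave 650.5, 719.5 and 1051 in untreated cells, 1024, 966 and 765 after 12 h of RA, and 1943 and 1470 after 72 h. Its replicates varied more than those of Tpx2, and it rose by 1.10 ± 0.19 (SE, adjusted p = 0.0023). Spag5 (astrin) rose by 1.08 ± 0.13 (SE, adjusted p = 7.85e-05). Nusap1 was the 1 gene of the group that was not called; it gave 391, 391 and 345 in untreated cells, 292, 312 and 366 after 12 h of RA, and 605 and 711 after 72 h, a change of 0.80 ± 0.14 (SE, adjusted p = 0.00154).

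All 5 genes of cytokinesis and the cell cortex passed. Iqgap3, a scaffold of the RAS and actin pathways, gave 149.9, 166 and 113 in untreated cells, 168, 165 and 197 after 12 h of RA, and 324 and 384 after 72 h, a change of 1.31 ± 0.18 (SE, adjusted p = 0.000255). Diap3, a formin that builds actin filaments (chromosome 14, 87055174 to 87541031), gave 894, 836 and 954 in untreated cells, 955, 934 and 953 after 12 h of RA, and 1841 and 1966 after 72 h. Both were called; the change of Diap3 was 1.09 ± 0.10 (SE, adjusted p = 1.53e-05). Anln (anillin), the scaffold of the contractile ring, gave 2262, 2161 and 2008 in untreated cells, 2202, 2016 and 2265 after 12 h of RA, and 4023 and 4546 after 72 h. The 6 libraries of untreated cells and 12 h lay close together and both of 72 h far above them, with a change of 1.00 ± 0.11 (SE, adjusted p = 4.71e-05), just below the 2-fold line. Prc1, which bundles the microtubules of the midzone, rose by 0.84 ± 0.14 (SE, adjusted p = 0.00117). Depdc1a (chromosome 3, 159158397 to 159192919), which stands outside the roles above, gave 423, 422 and 389 in untreated cells, 393, 348 and 427 after 12 h of RA, and 915 and 892 after 72 h, a change of 1.13 ± 0.12 (SE, adjusted p = 3.82e-05).

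Ect2 (chromosome 3, 26996144 to 27052800), the exchange factor that activates RhoA at the cleavage furrow, was the 1 gene whose 72 h level did not stand above that of 12 h. It gave 797, 653 and 1007 in untreated cells, 1454, 1243 and 959 after 12 h of RA, and 1396 and 1146 after 72 h. The 12 h libraries already overlapped those of 72 h, and 2 of the 3 lay above all untreated values. The change at 12 h was 0.57 ± 0.17 (SE, adjusted p = 0.0859), that at 72 h 0.65 ± 0.19 (SE, adjusted p = 0.0426), and the difference between 72 h and 12 h 0.07 ± 0.19 (SE, adjusted p = 0.89). The pass at 72 h rested on few libraries: the adjusted p was 0.321 without RA 72 h replicate 1, 0.074 without replicate 2, 0.117 without untreated replicate 1, 0.125 without untreated replicate 2 and 0.0721 without RA 12 h replicate 2. Conversely, the change at 12 h passed without untreated replicate 3 (adjusted p = 0.00699), without RA 12 h replicate 3 (0.0303) and with the side as a term (0.00533).

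**Figure D3:**
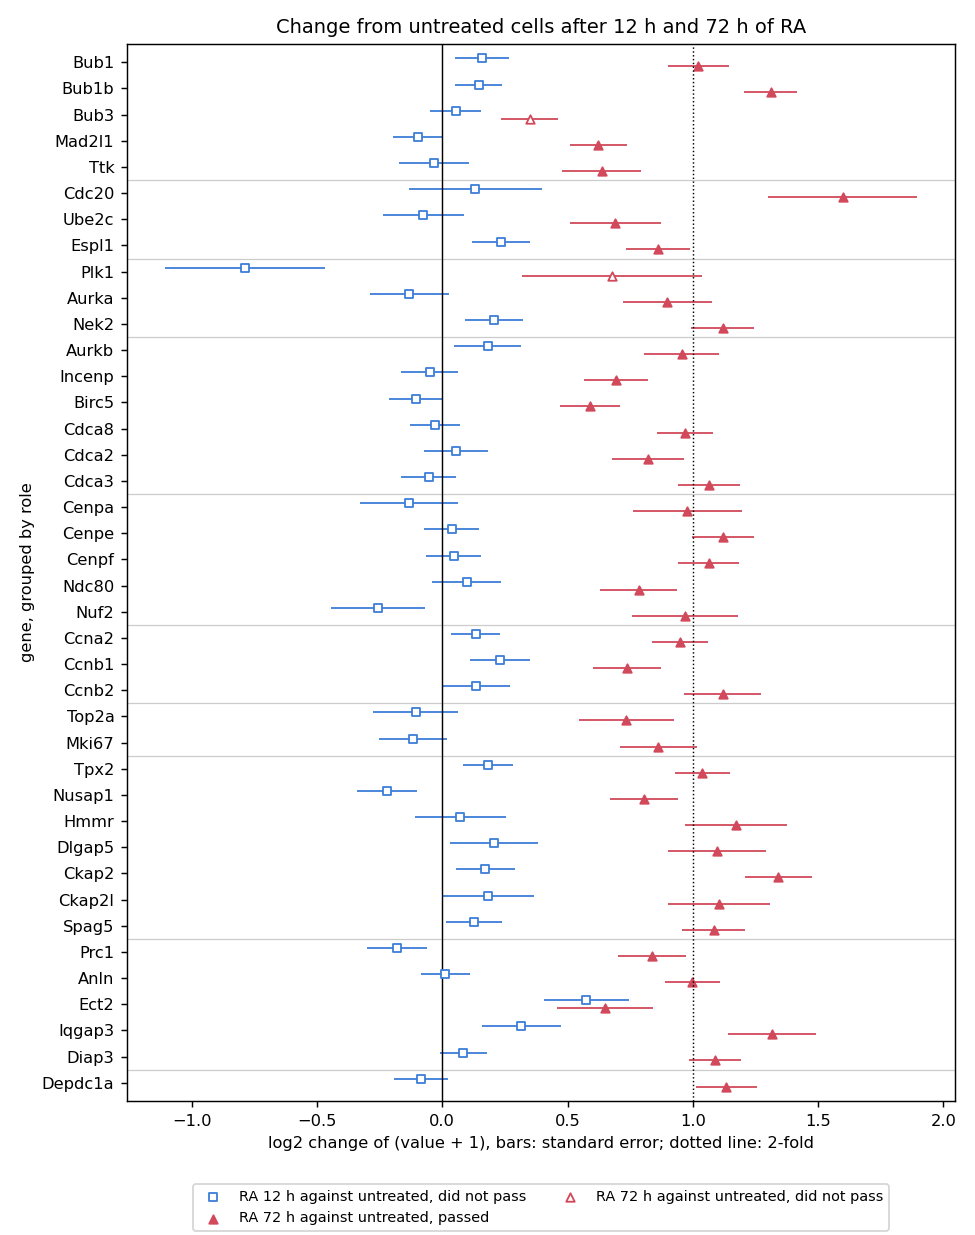
Log2 change of (value + 1) from untreated cells after 12 h (squares) and 72 h (triangles) of RA for each of the 40 genes, with standard errors as bars. Filled triangles passed (38 genes) and open symbols did not; the 72 h changes lie around 0.97 and the 12 h changes around 0.05, with Plk1 and Ect2 at the 2 ends of the 12 h range.

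The comparison of 12 h of RA with untreated cells, both labelled 12 h, asks for early changes and is free of the difference in time. Here 0 of the 40 genes passed with limma in either direction, while 2.87% of all tested genes passed and were higher and 1.5% passed and were lower. At an unadjusted p under 0.05 there were 2 of the 40 genes, Ect2 and Plk1, against 2065 of all 12673 tested genes. By sign, 24 genes were higher and 16 lower; the median log2 change was 0.05, within a range from -0.79 for Plk1 to 0.57 for Ect2, against -0.02 over all tested genes. Within the sides, 21 of the 40 were higher on side 1 and 25 on side 2. The 12 h libraries lay wholly above untreated cells in 3 genes (Bub1b, Espl1 and Nek2) and wholly below in 1 (Plk1). The share of all tested genes that separate in this way was not computed, so these counts are not read as a change. Bub1b changed by 0.15, Espl1 by 0.23 and Nek2 by 0.21 at 12 h, with adjusted p of 0.472, 0.339 and 0.399. Nuf2, with a 12 h change of -0.26 (adjusted p = 0.533), passed as lower without untreated replicate 3 (-0.49, adjusted p = 0.046), and Iqgap3, at 0.32 (0.345), passed as higher with the side as a term (0.43, adjusted p = 0.0232).

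**Figure D4:**
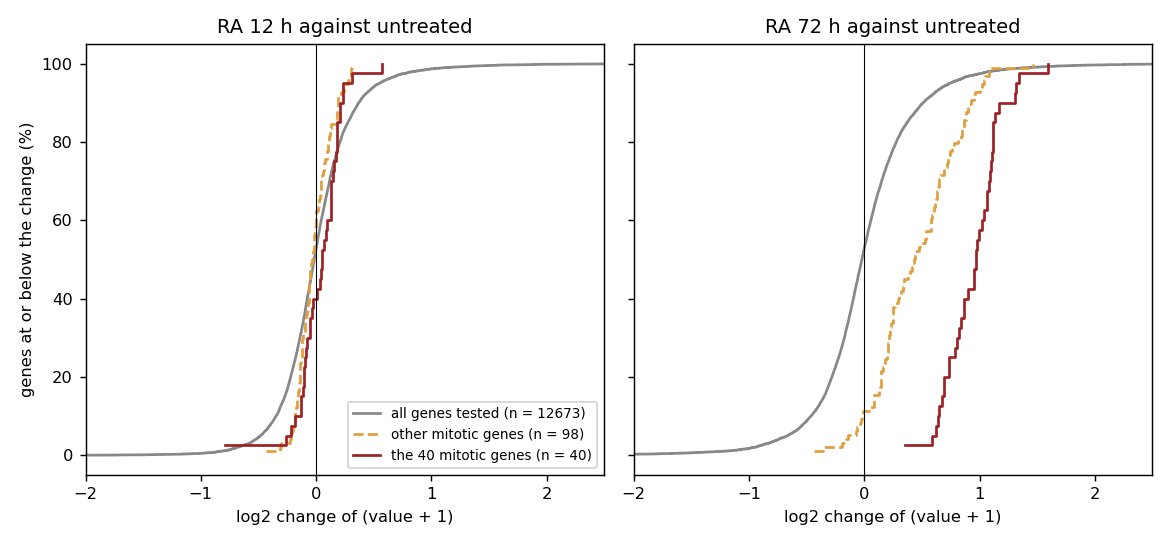
Cumulative share of genes (vertical axis, percent) at or below a log2 change of (value + 1), for the 40 genes, 98 other mitotic genes and all 12673 tested genes, at 12 h (left) and 72 h (right) against untreated cells. At 12 h the medians are 0.05, -0.03 and -0.02, and at 72 h they are 0.97, 0.44 and -0.02.

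Between 12 h and 72 h of RA, in cells that were treated at both times, 38 of the 40 genes passed and were higher, against 2.92% of all tested genes, and 0 were lower. The median log2 change was 0.97, from 0.07 for Ect2 to 1.47 for Cdc20, and 15 genes were called, against 0.765% of all tested genes. This contrast shares the 72 h libraries with the one against untreated cells. Ect2 and Bub3 did not pass, the latter at 0.30 ± 0.11 (SE, adjusted p = 0.163). After Cdc20 and Plk1 (1.46), the largest rises were found in Nuf2 at 1.23 ± 0.21 (SE, adjusted p = 0.00398), Depdc1a at 1.22 ± 0.12 (SE, adjusted p = 8.72e-05), Ckap2 at 1.17 ± 0.13 (SE, adjusted p = 0.000204) and Bub1b at 1.16 ± 0.10 (SE, adjusted p = 4.09e-05). Without RA 72 h replicate 2 the pass was lost in Cdc20 (0.146), Plk1 (0.297) and Nuf2 (0.0563), and Cdc20 also lost it without RA 12 h replicate 1 (0.0503). Of the 5 kinetochore genes, 4 were called here (Cenpa, Cenpe, Cenpf and Nuf2), of which Cenpa did not pass without replicate 1 (0.1) or replicate 2 (0.0585) of 72 h. Of the 3 cyclins 0 were called, with Ccnb1 at 0.50 ± 0.13 (SE, adjusted p = 0.0454). Ccnb1 did not pass here without untreated replicate 1 (0.0708) or without any 1 of the 5 RA libraries (0.0774 to 0.305). All 40 genes were higher at 72 h within each side, with medians of 0.96 on side 1 and 0.94 on side 2. This direction was fixed in advance in the 38 genes whose 72 h libraries lay above the 6 others. The number that passed was the part that depended most on 1 library: it was 21 without RA 72 h replicate 2 and 27 without replicate 1, where 1.02% and 1.25% of all tested genes passed and were higher.

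For 72 h against untreated cells, 30 of the 40 genes passed without RA 72 h replicate 2 and 33 without replicate 1, where 3.51% and 3.08% of all tested genes passed and were higher; with 1 library left, that library is assumed to vary like the other groups. In 27 genes the pass held in all 15 fits, including each that left out a library. How many of all tested genes passed in every fit was not counted. The pass was lost in at least 1 fit in Ttk, Cdc20, Ube2c, Aurka, Birc5, Cenpa, Ndc80, Nuf2, Ccnb1, Top2a and Ect2. Between the 2 libraries of 72 h, 24 genes were higher in replicate 2 and 16 in replicate 1, with a median difference of 0.03 and a range from -0.40 to 0.60 on the log2 scale. The genes span 4.16 to 486 kb in the genome (median 27.7 kb, against 28.1 kb for tested genes with a known span). Spearman's rho between the 72 h change and span was 0.21 across the 40 genes and 0.18 across 12503 tested genes, given as a description since genes share the libraries. The 11214 tested genes with spans in that range had a median change of -0.02.

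A wider list of 106 other mitotic genes was described beside the 40, also chosen with earlier results of these data known. Of these, 98 were in the table, all tested. The gene Cdk1 stands there under the symbol Cdc2a and is included. At 72 h against untreated, 6.08% of all tested genes passed and were higher and 2.15% were called as higher. Of the 98 genes, 48 passed and were higher, 1 passed and was lower, and 7 were called, with a median log2 change of 0.44. The roles differed in these counts: 15 of 18 other kinase, spindle and cytokinesis genes and 11 of 15 genes of the CDK1 switch passed and were higher, against 13 of 28 other kinetochore and centromere genes, 7 of 21 cohesin and condensin genes and 2 of 16 genes of the anaphase-promoting complex. Aspm, which acts at spindle poles, gave 358, 348 and 533 in untreated cells, 452, 467 and 383 after 12 h of RA, and 1332 and 938 after 72 h, a change of 1.46 ± 0.19 (SE, adjusted p = 0.000228). Pttg1 (securin, the inhibitor of separase) changed by 1.11 ± 0.12 (SE, adjusted p = 3.47e-05), Troap by 1.08 ± 0.15 (SE, adjusted p = 0.000351), Cdc25c, the phosphatase that activates CDK1, by 1.04 ± 0.18 (SE, adjusted p = 0.00171), and Tacc3, a spindle protein, by 1.04 ± 0.12 (SE, adjusted p = 6.86e-05).

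Cdc16, a core subunit of the anaphase-promoting complex, was the 1 gene of this list that passed and was lower. It gave 349.9, 399 and 342 in untreated cells, 361, 364 and 325 after 12 h of RA, and 252 and 284 after 72 h. The 72 h libraries lay below all others, with a change of -0.44 ± 0.13 (SE, adjusted p = 0.0422). It passed without untreated replicate 3, but the adjusted p was between 0.0502 and 0.328 when any 1 of the 7 other libraries was left out. At 12 h, 0 of the 98 genes passed with limma, and the median was -0.03. An unadjusted p under 0.05 was found in 7 of them, against 2065 of all 12673 tested genes. Between 12 h and 72 h, 2.92% of all tested genes passed and were higher and 0.765% were called as higher. Of the 98 genes, 40 passed and were higher and 10 were called, with a median of 0.45. No gene of the list passed as lower (1, Cdc16, at an unadjusted p under 0.05). The largest rises there were found in Aspm at 1.37, Psrc1 at 1.19 ± 0.19 (SE, adjusted p = 0.00226), a microtubule-binding protein, Cdc25c at 1.18, Gtse1 at 1.13 ± 0.19 (SE, adjusted p = 0.00411), which acts in G2 and binds microtubules, and Pttg1 at 1.12. In this wider list, too, the counts fell when a 72 h library was left out: 22 passed as higher against untreated without replicate 1 and 25 without replicate 2, and 22 and 17 against 12 h.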

How the data were processed

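RNA was profiled in 8 libraries of immortalised mouse embryonic fibroblasts. Per the labels, polyadenylated RNA was converted to DpnII tags read as 18 bases; the study's methods instead describe fragmented RNA aligned to mm9 with Tophat and counted with Cufflinks and Ensembl models. The authors deposited normalised reads per gene, and the sorted values of all 8 columns were identical, so the authors had quantile normalised them. These values are not counts, the depth behind them is unknown, and intervals that need it are not given. The deposited group averages and log2 ratios were not used. 1 line without a gene was left out.

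Values were transformed as log2(value + 1). The 12673 genes with a mean of at least 10 were fitted in limma (version 3.58.1, R 4.3.3) with 3 groups in 1 model and a variance trend; p-values are two-sided and adjusted by Benjamini-Hochberg over the tested genes. The fit was tested on simulated data. Sides are the sign of the first principal component of within-group deviations. The main fit did not pair the libraries by replicate number. Correlations of deviations in 7 same-number pairs ran from -0.47 to 0.42, with 2 above 0.1. They cannot settle whether the numbers pair the libraries. The 2 libraries of 72 h deviate from their mean by equal and opposite amounts, so their correlations mirror each other. Gene positions are those of mm9, 1-based.

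The genes and lists were chosen with earlier results of these data known. All 40 genes are named, and of the other mitotic genes at most the 5 largest changes that passed in each direction and contrast. Genes outside this rule that are named where a count is 5 or fewer were chosen after their values were seen. The alternatives were pseudocount 10, no filter, leaving out each library, a replicate block, a side term, no variance trend, fits of 2 groups, and unadjusted p with 2-fold.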

Additional observations from a re-analysis of the deposited data

Results flagged for a closer look

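In 38 of the 40 genes the change from untreated cells differed between 72 h and 12 h of RA, by the test of the difference itself (RA 72 h against RA 12 h in limma, adjusted p below 0.05). All 38 differences were toward higher values at 72 h, while 2.92% of all tested genes passed and were higher. The exceptions were Bub3 and Ect2. This contrast is the one described above and is not a separate result. The changes at 72 h and 12 h were taken from the same untreated libraries, which cancel in their difference. Time in culture and time in RA cannot be told apart here.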

How the results depend on the processing

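Against untreated cells, the 40 genes were higher at 72 h under each alternative run, and their median log2 change stayed between 0.946 and 0.976 when any 1 library was left out. With the replicate number as a block, 34 of the 40 passed against untreated and 32 against 12 h, in place of 38 and 38. The block lost 4 and 6 passes. Of all tested genes, 4.55% and 1.89% passed and were higher with the block, in place of 6.08% and 2.92%. No gene passed at 12 h with the block. With the side as a term, 2 genes (Iqgap3 and Ect2) passed as higher at 12 h, 1 other mitotic gene (Cdca5) passed as lower at 12 h and 1 (Cdc16) as lower at 72 h against 12 h. Cdc16 at 72 h against untreated no longer passed, so that 0 other mitotic genes were lower, with no filter, the replicate block, no variance trend or only the 2 groups. When 1 library was left out, the counts ran as follows. At 12 h, 0 to 1 of the 40 passed as higher and 0 to 1 as lower, and of the other mitotic genes 0 to 2 as higher and 0 to 2 as lower, with a median from -0.081 to -0.0091. At 72 h against untreated, 22 to 46 other mitotic genes passed as higher and 0 to 1 as lower, with a median from 0.418 to 0.494. At 72 h against 12 h, 21 to 38 of the 40 passed, with a median from 0.908 to 0.969, and 17 to 50 of the other mitotic genes. Ect2 at 72 h against 12 h ran from -0.087 to 0.22, with -0.087 without RA 12 h replicate 3, -0.067 without RA 72 h replicate 1 and 0.22 without RA 72 h replicate 2; it passed in none of these. Leaving out a library also leaves fewer libraries to estimate the spread. The lost depth, 2 libraries at 72 h and no untreated cells at that time limit these comparisons.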

Other observations

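Among all tested genes with a RefSeq promoter window, 401 held both TTTGAA and CCAAT, and 69 of these (17.21%) passed and were higher at 72 h against untreated. Of the 4413 with neither motif, 242 did (5.48%). After leaving out both mitotic lists, the share among genes with both motifs was 34 of 360 (9.44%) and their median log2 change was 0.03, against 233 of 4382 (5.32%) and -0.03 for genes with neither. With TTTGAA alone it was 29 of 532 (5.45%) and with CCAAT alone 111 of 2660 (4.17%). The mitotic lists do not hold every cell cycle gene, so such genes may remain among the 360. Within the 40 genes, 20 of 22 with both motifs passed and were higher. The counts were 3 of 3 with TTTGAA alone, 4 of 4 with CCAAT alone and 4 of 4 with neither. Neither means no exact match in the window counted for that gene. RefSeq held 32851 promoter entries for 27025 genes, and further starts of a gene were not counted. Since nearly all of the 40 genes passed, these counts cannot show whether the motifs matter. No test was made of these shares.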
